A study of Triticum aestivum with 24 samples.

Results

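Flag leaves of a drought-tolerant wheat bulk were compared with those of the drought-tolerant parent C306, both grown under drought. The comparison rests on 6 of the 24 Affymetrix wheat arrays of the study, chosen by their titles: 3 arrays of the tolerant bulk under drought and 3 of C306 under drought. The bulk was a pool of 10 recombinant inbred lines, which are lines fixed by repeated selfing after a cross. The study also held the drought-susceptible parent WL711 and a susceptible bulk, likewise a pool of 10 lines, and sampled all 4 materials at the reproductive stage under drought and under irrigation, with 3 arrays in each of the 8 groups. Each side of the comparison is thus 1 pool or 1 parent. The submitters describe the 3 arrays of a group as biological replications, without saying whether different plants were sampled; p-values therefore refer to the spread over arrays, which may be technical, and take no account of variation over genotypes. How long and how severe the drought was, the sources used here do not give.

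The flag leaf is the last leaf to form before the ear and supplies much of the sugar that fills the grain. Under water shortage, leaves of cereals commonly make protective proteins such as late embryogenesis abundant (LEA) proteins and dehydrins, release sugars from stored fructan, and lower the transcripts of the photosynthetic machinery. A bulk of inbred lines selected for tolerance carries segments of both parents in different mixtures, so at each gene its RNA is an average over lines that hold the allele of one parent or of the other. In leaf RNA of this kind, fewer cells of a type and less RNA per cell cannot be told apart.

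The values were probe set intensities, analysed as log2(signal + 16) after centring each array on its median, so a difference of 1 is a 2-fold change for bright probe sets and understates the change of dim ones. Each deposited array had been scaled to a trimmed mean of 500.091 to 500.113. Transcripts of green leaf were present: PsbO lay at 14.52 to 15.77 on the bulk arrays and at 13.87 to 14.90 on the C306 arrays, and PRK at 14.67 to 15.71 and at 15.22 to 15.49. Of the grain endosperm markers, the gliadin Gli-8 lay at 5.50 to 7.83 in the bulk and at 7.50 to 8.42 in C306. The glutenin LMW-GS lay at 6.91 to 7.97 in the bulk and at 5.55 to 8.54 in C306.

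Control probe sets set the C306 drought arrays apart. The poly-A controls, transcripts meant to be added to the RNA before labelling, averaged 12.19 ± 0.23 in the bulk and 14.49 ± 0.41 in C306 (SD, n = 3 each, log2 without centring; exact permutation test, two-sided p = 0.1, the smallest that 3 arrays against 3 allow). All 3 C306 drought arrays lay above every other array, and the 18 arrays outside the comparison ran from 10.89 to 13.36. The hybridisation controls, meant to be added just before hybridisation, averaged 12.25 ± 0.39 in the bulk and 13.47 ± 0.74 in C306 (exact p = 0.2). Here replicates 1 and 3 of C306, at 14.12 and 13.63, stood above every other array, while replicate 2, at 12.67, lay within the range of the rest. The 3′ over 5′ log ratio of GAPDH averaged -0.93 ± 0.67 in the bulk and 0.41 ± 0.17 in C306 (exact p = 0.1). Those of actin (exact p = 0.7) and EF1a (exact p = 0.3) overlapped. Such ratios are often read for RNA integrity, but the probe sets were dim here. Those of GAPDH lay at 4.6 to 7.4 and those of EF1a at 4.5 to 6.9 on the 6 arrays (centred). The GAPDH ratio ran from -1.99 to 2.00 on the 18 other arrays, so no difference in RNA integrity is read from it. Bulk replicate 3 also differed from the other bulk drought arrays. Its highest signal was 47272.4, against 110365.1 and 107678.8, though susceptible bulk replicate 3 under irrigation had 45896.3. Its median before centring, 8.224, was the highest of any array, against 7.905 and 7.909. Every tested photosynthesis gene was lowest on it among these bulk arrays, such as PsbP at 14.264 against 15.722 and 15.715. The part these differences play in the results was not tested. Some of the counts over probe sets and gene groups are also given without C306 replicates 1 and 3. Lists and gene groups were not counted without bulk replicate 3.

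**Figure D1:**
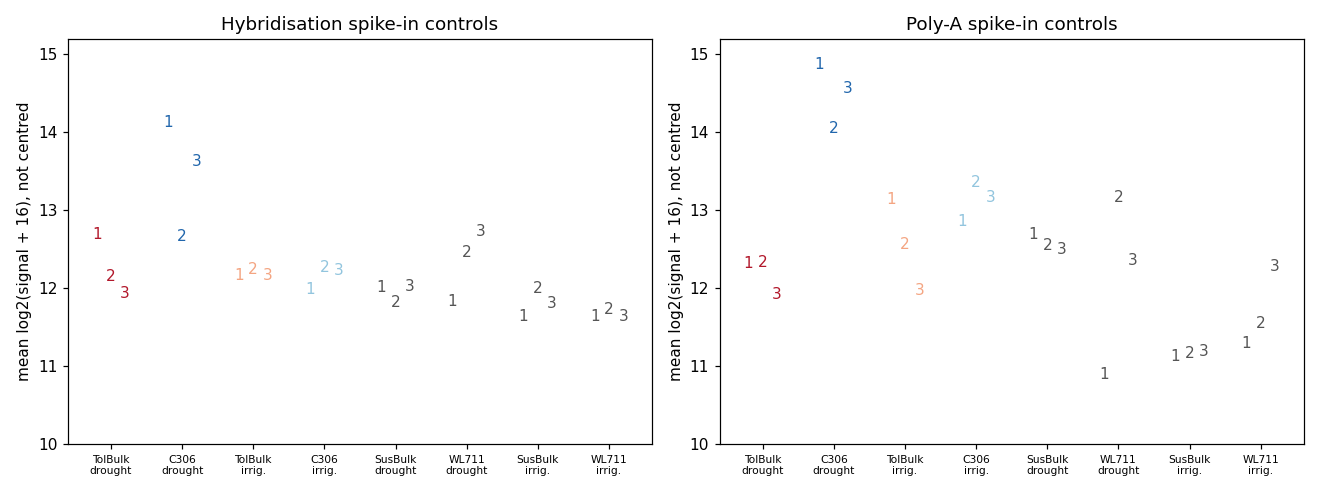
Mean log2(signal + 16), without centring, of the hybridisation controls (left) and poly-A controls (right) on all 24 arrays, by group; each digit is 1 array and gives its replicate number. The C306 drought arrays lie at 14.05 to 14.87 for the poly-A controls, above all other arrays, and its replicates 1 and 3 are also highest for the hybridisation controls.

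Under drought the bulk and C306 differed widely. Of 36669 probe sets tested, 13679 passed an adjusted p of 0.05 (37.3%; limma, Benjamini-Hochberg), 7034 higher in the bulk (19.2%) and 6645 lower (18.1%). The median difference over all tested probe sets was -0.07. Centring on the median over all probe sets, dim ones included, moves every difference up by 0.194 and makes the split 8340 higher and 4644 lower. The differences reached a log2 size of 1 for 5104 of the higher and 4372 of the lower probe sets, of 2 for 1321 and 715, and of 4 for 70 and 37. Arrays correlated at 0.924 to 0.948 within the bulk and at 0.920 to 0.925 within C306, and at 0.807 to 0.888 across the 2 groups. The arrays of the 2 groups did not overlap for 5849 of the higher calls (16% of the probe sets tested) and 6065 of the lower calls (16.5%). With C306 replicates 1 and 3 left out, 6530 probe sets passed, 3064 higher and 3466 lower, in a fit that takes the lone C306 array to vary like the other groups.

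Each call was set against the other 6 groups of the study, to see which of the 2 groups stood outside them. Among the 7034 probe sets higher in the bulk, the bulk alone stood above all 6 other group means at 624 (8.87%), C306 alone stood below them at 3849 (54.7%), both did at 893, and neither at 1668. Among the 6645 lower ones, the bulk alone stood below the other 6 groups at 914 (13.8%), and C306 alone above them at 3535 (53.2%). These counts describe group means and were not tested. The probe sets were picked for a gap between these same 2 groups, which by itself tends to place them outside the others. The matching shares over all tested probe sets were not counted, so the counts are not read as a result about either group. With C306 replicates 1 and 3 left out, the bulk alone stood out at 347 of 3064 higher calls (11.3%) and C306 alone at 1546 (50.5%). Among the 3466 lower calls the bulk alone stood out at 511 (14.7%) and C306 alone at 1854 (53.5%). The 2 unnamed probe sets with the largest rise were picked by this same gap, and their values are given as examples only. Ta.28058.1.S1_at had 15.53, 15.62 and 14.28 on the bulk arrays, against 8.08, 6.83 and 7.15 on the C306 arrays, a difference of 7.79 ± 0.29 (SE; adjusted p = 1.13e-15). The group means of the other 6 groups ran from 14.59 to 15.65, so only C306 under drought was low. Ta.11279.1.A1_at had 11.46, 11.58 and 11.63 in the bulk, against 4.29, 4.58 and 4.14 in C306, a difference of 7.22 ± 0.19 (adjusted p = 8.66e-19). It too was low in C306 under drought only, with means of 10.65 to 11.80 in the other 6 groups. Its C306 values were close to the dimmest signals of the array, which limits the size of the difference.

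For the 2 unnamed probe sets with the largest fall, the bulk under drought was lowest and C306 under drought highest of the 8 group means. Ta.2789.2.S1_at had 9.32, 9.13 and 8.90 in the bulk, against 16.11, 14.72 and 15.80 in C306, a difference of -6.43 ± 0.31 (adjusted p = 1.57e-13). The other 6 group means ran from 10.22 to 13.56. Ta.7545.1.A1_at had 5.55, 4.45 and 4.87 in the bulk, against 11.08, 11.07 and 11.25 in C306, a difference of -6.17 ± 0.55 (adjusted p = 6.81e-09). The other 6 group means ran from 5.46 to 8.74, the highest of them that of the susceptible bulk under drought. The bulk values of this probe set were close to the dimmest signals of the array. Its place below the other groups is therefore not read as a departure.

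The same 2 materials were also compared under irrigation, on arrays the drought comparison does not use. There 12390 probe sets passed (33.8%), 5261 higher in the bulk (14.3%) and 7129 lower (19.4%; 3794 and 8925 when centred on all probe sets). Of the probe sets higher in the bulk under drought, 43.7% were also higher under irrigation, which is 58.4% of the irrigated list, and 4.45% were lower there. Of those lower in the bulk under drought, 54.5% were also lower under irrigation (50.8% of that list) and 1.82% were higher. Without C306 drought replicates 1 and 3, with all lists called again, the shared calls made up 29.9% of the higher and 32.8% of the lower irrigated list, and 55% and 70% of the drought lists. Across all tested probe sets the 2 differences correlated at r = 0.528, where points share probe sets and genotypes but no array.

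**Figure D2:**
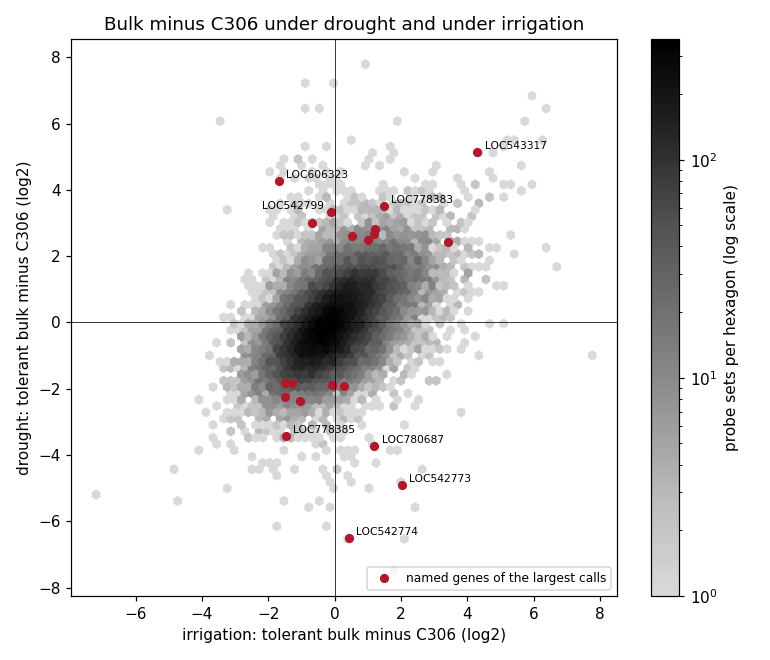
Difference of the tolerant bulk minus C306 (log2) under drought, on the vertical axis, against the same difference under irrigation, on the horizontal axis, for the 36669 tested probe sets; darker hexagons hold more probe sets, and red points are the 20 named genes that rose or fell most under drought, 10 each way. The cloud runs along the diagonal, LOC543317 lies high on both axes, and LOC542774, LOC542773 and LOC780687 fall under drought while standing above 0 under irrigation.

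The difference was then read at probe sets where the parents themselves differed. The lists came from irrigated arrays of WL711 and C306, none of which enters the drought comparison. Of 2869 probe sets higher in irrigated WL711 than in irrigated C306 (7.82% of those tested), 53.7% were higher in the bulk than in C306 under drought and 6.1% lower, with a median of 0.92. Of 3028 lower in WL711 (8.26%), 9.48% were higher in the bulk and 47.2% lower, with a median of -0.65. Among the 30772 probe sets with no such call between the parents, 16.9% were higher in the bulk and 16.4% lower. Without C306 replicates 1 and 3 under drought the shares on the matching side were 28.8% and 30.1%, against 8.36% higher and 9.45% lower over all tested probe sets.

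Transcripts that respond to drought in the susceptible materials were read in the same way. Drought raised 10.4% of the tested probe sets in WL711 and 12.7% in the susceptible bulk, and lowered 9.02% in WL711 and 11.2% in the susceptible bulk. Of 1650 probe sets raised by drought in both WL711 and the susceptible bulk, 347 were higher in the tolerant bulk than in C306 (21%) and 524 lower (31.8%), with a median of -0.17 that becomes 0.02 when arrays are centred on all probe sets. Of 1542 probe sets lowered by drought in both, 592 were higher in the bulk (38.4%) and 203 lower (13.2%), with a median of 0.56. The median level of the drought-lowered list was 9.40, 9.46 and 9.03 on the bulk arrays and 8.63, 8.95 and 8.57 on the C306 arrays, so the 2 groups did not overlap. That list also stood higher in the bulk under irrigation, at 10.15, 10.31 and 10.28 against 9.44, 9.62 and 9.51 in C306. With C306 replicates 1 and 3 left out, 12.7% of the drought-lowered list were higher and 8.95% lower, with a median of 0.31. Both lists also depended on replicate 1 of WL711 under drought, whose median over the drought-lowered list was 9.87, against 8.60 and 8.43 on the other WL711 drought arrays. Without it the raised list held 2515 probe sets, 23.5% of them higher in the tolerant bulk than in C306 and 35% lower. The lowered list then held 2975, of which 46.6% were higher and 15.9% lower, with a median of 0.53.

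The susceptible bulk was set against WL711 under drought as the other bulk-parent pair, again on separate arrays. In that pair 5963 probe sets passed (16.3%), 2700 higher in the bulk (7.36%) and 3263 lower (8.9%; 2646 and 1913 when centred on all probe sets). Of the probe sets higher in the tolerant bulk, 21.8% were also higher in the susceptible bulk than in WL711, which is 56.9% of that list. Of those lower in the tolerant bulk, 24% were lower in the susceptible bulk (48.9% of that list). The shared calls, without C306 replicates 1 and 3, made up 37.8% of the higher and 35.5% of the lower list of the susceptible pair, and 36% and 36.9% of the lists of the tolerant pair. The 2 differences correlated at r = 0.371 over all tested probe sets. The test of the difference between the pairs passed for 5606 probe sets (15.3%), 3188 of them positive (8.69%), that is, with the tolerant pair's difference above that of the susceptible pair, and 2418 negative (6.59%). It passed for 2071 without C306 replicates 1 and 3.

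**Figure D3:**
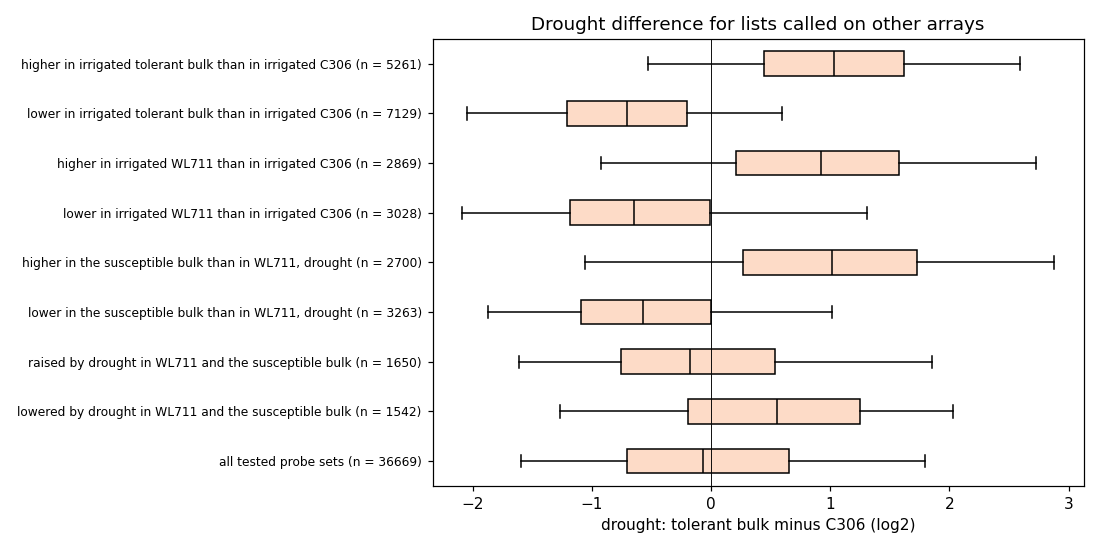
Difference of the tolerant bulk minus C306 under drought (log2) for lists of probe sets called on arrays other than the 6 compared; boxes span the middle 50% with the median as a line, whiskers run from the 5th to the 95th percentile, and n is the number of probe sets. Medians lie at 0.92 and -0.65 for probe sets higher and lower in irrigated WL711 than in irrigated C306, and at -0.17 (0.02 when centred on all probe sets) and 0.56 for those raised and lowered by drought in the susceptible materials.

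The old platform annotation names 771 genes, of which 632 were tested by their brightest probe set. Of these, 289 passed (45.7%), 185 higher in the bulk (29.3%) and 104 lower (16.5%), with a median of 0.25. Without C306 replicates 1 and 3, 95 were higher and 66 lower, with a median of 0.06. Most carry only a LOC number as their symbol, and no role is given for these.

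Among the 10 named genes with the largest rise, LOC543317 led. It had 10.13, 10.32 and 8.95 on the bulk arrays under drought, against 4.86, 4.35 and 4.75 on the C306 arrays, a difference of 5.14 ± 0.36 (adjusted p = 1.66e-10). These C306 values were close to the dimmest signals of the array, which limits the size of the difference. All bulk arrays lay above all C306 arrays, and the gene was also higher in the bulk under irrigation, by 4.29 ± 0.36, and in the susceptible bulk than in WL711 under drought, by 4.06 ± 0.36. LOC606323 had 13.19, 13.20 and 12.06 in the bulk, against 9.39, 6.96 and 9.31 in C306, a difference of 4.26 ± 0.56 (adjusted p = 2.01e-06). Under irrigation it was lower in the bulk, at 7.35 ± 0.45 against 9.04 ± 0.30 in C306 (SD, n = 3 each).

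LOC542799 had 13.77, 13.85 and 12.85 in the bulk under drought, against 10.64, 9.12 and 10.70 in C306, a difference of 3.34 ± 0.61 (adjusted p = 0.000131). The groups were separate, and both of its probe sets passed. Under irrigation the difference was -0.09 and did not pass (adjusted p = 0.925). LOC543197 had 10.77, 11.25 and 10.59 in the bulk, against 8.49, 6.36 and 8.77 in C306, a difference of 3.00 ± 0.52 (adjusted p = 7.88e-05). In the other pair under drought it had 14.20 ± 0.26 in the susceptible bulk, against 7.78 ± 1.37 in WL711 (SD). LOC606366 had 11.30, 10.95 and 11.80 in the bulk, against 8.72, 8.79 and 8.51 in C306, a difference of 2.68 ± 0.19 (adjusted p = 2.13e-10), and 3 of its 4 probe sets rose. The other 5, LOC778383, LOC543390, LOC543338, LOC543430 and LOC543420, rose by 2.43 to 3.51. For 7 genes of the 10 the lowest C306 array was replicate 2, for LOC543390 and LOC543430 it was replicate 1, and for LOC606366 it was replicate 3.

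The 3 largest falls among named genes shared a pattern: C306 under drought was highest of all groups and the bulk under drought lowest or nearly so. LOC542774 had 6.21, 6.22 and 4.84 in the bulk, against 12.83, 11.43 and 12.56 in C306, a difference of -6.51 ± 0.35 (adjusted p = 9.46e-13). The other 6 groups had means from 8.25 to 10.24, between the 2 groups compared. LOC542773 had 7.45, 7.22 and 8.32 in the bulk, against 12.78, 12.05 and 12.88 in C306, a difference of -4.90 ± 0.30 (adjusted p = 1.22e-11). Its other probe set fell by 7.49, and the unnamed Ta.2789.2.S1_at described above carries the same cluster number in its identifier as both. LOC780687 had 8.65, 8.30 and 8.33 in the bulk, against 12.31, 11.81 and 12.37 in C306, a difference of -3.74 ± 0.21 (adjusted p = 2.38e-12). Under irrigation LOC542773 and LOC780687 were higher in the bulk than in C306, by 2.03 ± 0.30 and 1.20 ± 0.21, and LOC542774 stood at 0.43 ± 0.35 and did not pass.

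LOC778385 had 6.85, 7.13 and 7.39 in the bulk, against 10.83, 9.95 and 10.86 in C306, a difference of -3.42 ± 0.29 (adjusted p = 3.89e-09). It was lower in the bulk under irrigation too, by -1.48 ± 0.29, and lower in the susceptible bulk than in WL711. The other 6 of the 10 largest falls, LOC780610, LOC780602, COMT1, LOC100037637, LOC543311 and LOC542869, ranged from -2.37 to -1.83. The call of LOC100037637 ended without C306 replicates 1 and 3 (-1.53, adjusted p = 0.0728), and the other 19 of these 20 genes kept theirs under every setting tried.

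**Figure D4:**
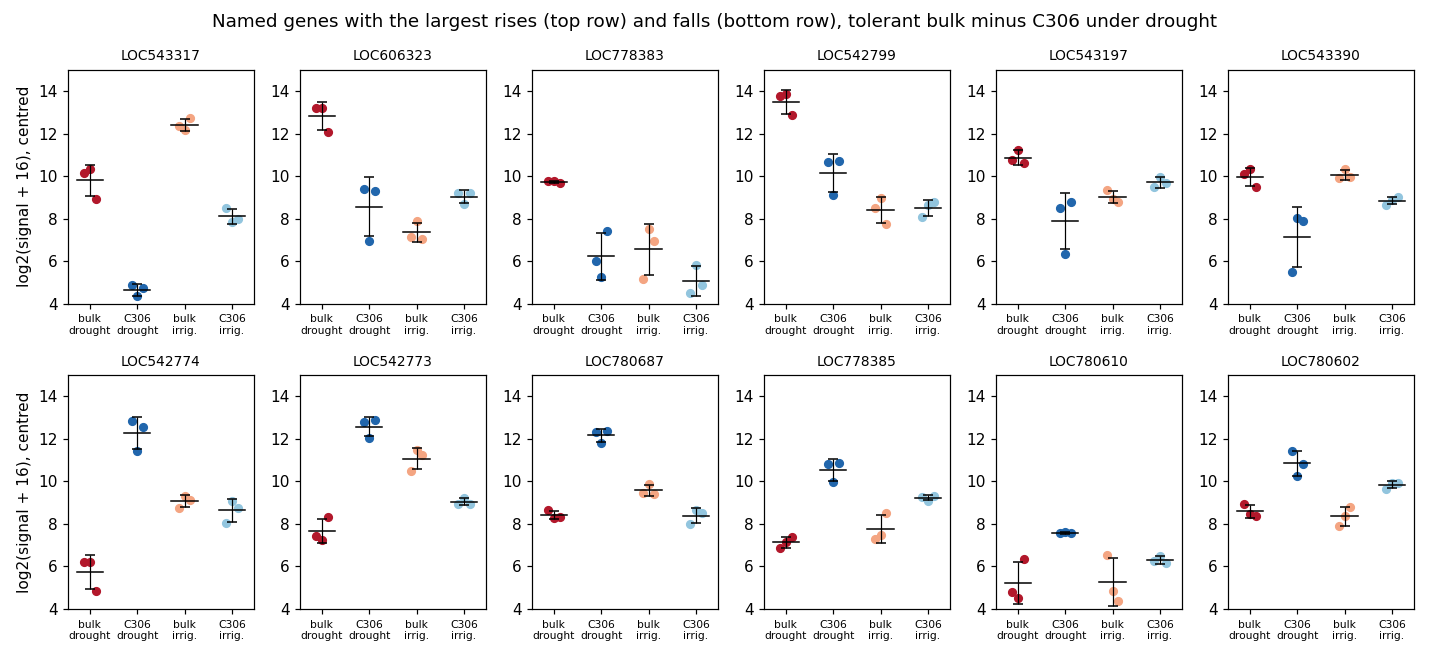
Values of the 6 named genes with the largest rise (top) and the 6 with the largest fall (bottom) on each array, as centred log2(signal + 16), in the tolerant bulk and C306 under drought and under irrigation; points are arrays, bars the mean and 1 SD (n = 3). Bulk and C306 points under drought do not overlap in any of the 12 panels, while under irrigation those of LOC778383, LOC542799, LOC542774 and LOC780610 do.

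Of 102 genes with a descriptive name, 78 were tested, and they are described by role, though some that did not pass go unnamed. They were grouped from what their names are known to mean, and only a few members of each pathway are named on this array. Beside the counts below, 29.3% of all named genes rose and 16.5% fell under drought, and under irrigation 28.3% were higher and 15.3% lower in the bulk. These shares were 15% and 10.4% under drought without C306 replicates 1 and 3.

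Of 4 LEA and dehydrin-type genes, 1 rose and 0 fell, with a median of 0.32. LEA1, which codes for a late embryogenesis abundant protein, had 11.07, 10.92 and 13.48 in the bulk, against 9.90, 8.92 and 9.91 in C306. The difference was 2.25 ± 0.70 (adjusted p = 0.013), and the groups did not overlap, although replicate 3 of the bulk stood well above the other two. The call ended without that array (1.42, adjusted p = 0.115), without C306 replicate 2 (1.92, adjusted p = 0.0558) and without C306 replicates 1 and 3 (2.90, adjusted p = 0.0515). Under irrigation LEA1 was lower in the bulk, by -1.97 ± 0.70, at 6.23 ± 1.40 against 8.20 ± 0.41 in C306. The dehydrins Rab15 and COR410 stood at 0.41 ± 0.46 and 0.22 ± 0.42, and EM, a LEA protein of seeds, at -0.68 ± 0.51; none passed.

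Of 8 genes of fructan, starch and sugar metabolism, 2 rose and 1 fell, with a median of 0.23. AGP-S, a subunit of ADP-glucose pyrophosphorylase, which feeds starch synthesis, had 12.29, 12.46 and 11.93 in the bulk, against 10.50, 10.34 and 10.11 in C306. It was higher by 1.91 ± 0.23 (adjusted p = 7.21e-07) with no overlap. Under irrigation it was higher in the bulk by a smaller 0.81 ± 0.23, and the difference between the regimes passed (1.10 ± 0.33, adjusted p = 0.0302). 6-FEH, an exohydrolase that frees fructose from fructan, had 9.42, 9.33 and 9.43 in the bulk, against 11.24, 11.18 and 10.86 in C306. It was lower by -1.70 ± 0.25 (adjusted p = 1.22e-05), and a second probe set was lower as well (-1.21), but a dimmer one was higher (1.53, adjusted p = 0.0123). 1-FEH, another fructan exohydrolase, stood at -0.45 ± 0.22 and did not pass. Pgk-1, phosphoglycerate kinase, rose by 1.21 ± 0.41 (adjusted p = 0.0232) but overlapped, and stood at 0.13 (adjusted p = 0.893) without C306 replicates 1 and 3. Its call also ended without bulk replicate 1 or 2 or C306 replicate 1 or 3. PFK, AGA.1, GAPN and PMM ranged from -0.12 to 0.45 and did not pass.

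Of 7 photosynthesis genes, 2 rose and 0 fell, with a median of 0.39. Under irrigation 5 were higher in the bulk, with a median of 0.80. On irrigated arrays the highest signal was 120139.7 to 145929.2 in the bulk and 63587.8 to 70368.9 in C306, at like trimmed means. These genes were bright, and the part of that difference in their calls was not tested. The median over all named genes was 0.25 under drought and 0.24 under irrigation. PsbO and PsbP, proteins of the oxygen-evolving complex of photosystem II, were the members that rose. PsbO had 15.60, 15.77 and 14.52 in the bulk, against 14.00, 14.90 and 13.87 in C306, and was higher by 1.04 ± 0.30 (adjusted p = 0.00741). Replicate 3 of the bulk and replicate 2 of C306 overlapped. PsbP rose by 0.80 ± 0.31 (adjusted p = 0.0418), and the dimmer of its 2 probe sets did not pass. Without C306 replicates 1 and 3, PsbO and PsbP stood at 0.40 and 0.23 and did not pass. The call of PsbP also ended without any single array except bulk replicate 3 and C306 replicate 2, and that of PsbO without bulk replicate 2 or C306 replicate 3.

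In the opposite direction, though not past the threshold, lay petC, the Rieske protein of the cytochrome b6f complex, at -0.68 ± 0.29 (adjusted p = 0.0649), and rbcl, the large subunit of Rubisco, at -0.68 ± 0.33 (adjusted p = 0.108). Of the 17 probe sets of rbcl, 2 fell, by 1.51 and 2.00, and 15 did not pass. Without C306 replicate 2, bulk replicate 1 or bulk replicate 2, both genes passed as lower, petC with adjusted p = 0.0337, 0.0117 and 0.0367 and rbcl at -0.98 to -0.95, and petC did so without centring too (-0.65). Under irrigation both genes were higher in the bulk, by 0.84 ± 0.29 and 0.91 ± 0.33, and the difference between the regimes passed for both (adjusted p = 0.0162 for petC and 0.0282 for rbcl). FBP, Trx-M and PRK ranged from -0.01 to 0.39 and did not pass.

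All 4 genes of methyl transfer passed, against 45.7% of named genes, 1 higher and 3 lower, with a median of -0.83. COMT1, a caffeic acid O-methyltransferase of lignin synthesis, had 12.44, 12.12 and 12.17 in the bulk, against 14.21, 14.29 and 13.96 in C306. It was lower by -1.91 ± 0.15 (adjusted p = 1.59e-09), with wide separation of the groups. Under irrigation it stood at 12.22 ± 0.03 in the bulk and 11.92 ± 0.17 in C306 (SD), a difference of 0.30 that did not pass, and WL711 under drought had 12.64 ± 0.24. SAHH, which clears the S-adenosylhomocysteine left by methyl transfer, had 15.11, 14.92 and 14.53 in the bulk, against 16.01, 15.71 and 15.96 in C306, and was lower by -1.04 ± 0.18 (adjusted p = 6.89e-05). For the other SAHH probe set the difference was -0.13, short of the threshold. PEAMT1, which makes phosphocholine, a precursor of membrane lipid and of glycine betaine, fell by 0.61 (adjusted p = 0.0362). Its call was lost under 5 of 15 other settings. These were centring on all probe sets (-0.42, adjusted p = 0.223), no filter (adjusted p = 0.306), the 2 groups alone, and the loss of C306 replicate 2 or bulk replicate 3. The count of 4 calls in this group therefore depends on the setting. PIMT, which repairs damaged aspartyl residues of proteins, had 10.81, 10.90 and 10.26 in the bulk, against 8.07, 9.23 and 8.39 in C306, and rose by 2.09 ± 0.24 (adjusted p = 3.13e-07). Without C306 replicates 1 and 3 this group again had 1 higher and 3 lower calls.

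Of 6 redox and detoxification genes, 2 rose and 2 fell, with a median of 0.22. PCS1 codes for phytochelatin synthase, which makes peptides that bind heavy metals. It had 8.68, 8.89 and 8.79 in the bulk, against 6.95, 7.98 and 7.18 in C306, and was higher by 1.41 ± 0.29 (adjusted p = 0.000462). CAT1, a catalase that breaks down hydrogen peroxide, rose by 0.69 ± 0.25 (adjusted p = 0.0315), with overlap and a call lost without any of 4 single arrays. The dimmer of the 2 CAT1 probe sets did not pass. Prx1 had 12.80, 12.67 and 12.82 in the bulk, against 14.41, 14.56 and 14.24 in C306, and was lower by -1.64 ± 0.14 (adjusted p = 5.23e-09), with clear separation. The glyoxalase gene lgul, whose product detoxifies methylglyoxal, was lower by -1.52 ± 0.22 (adjusted p = 7.15e-06). Both falls were also seen without C306 replicates 1 and 3, where neither rise passed (0.81 for PCS1 and 0.37 for CAT1). The brightest probe set of GSTZ1, a glutathione transferase, stood at -0.25 and did not pass, while its others passed in opposite directions, at 0.71 and -1.32.

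Of 7 defence and secreted proteins, 3 rose and 0 fell, with a median of 0.65. PR5, a thaumatin-like protein, had 8.29, 8.41 and 8.66 in the bulk, against 4.83, 7.22 and 6.88 in C306, and was higher by 2.14 ± 0.37 (adjusted p = 7.74e-05). The groups were separate, with replicate 1 of C306 far below the others. Under irrigation the difference was 3.49 ± 0.37, at 11.68 ± 0.09 in the bulk and 8.19 ± 0.47 in C306 (SD). Glc1 rose by 0.94 ± 0.24 and LTP3, a lipid transfer protein, by 0.81 ± 0.29, and both were higher under irrigation too. The call of LTP3 ended without bulk replicate 2 (0.62, adjusted p = 0.142), bulk replicate 3 (0.80, adjusted p = 0.052) or C306 replicate 2 (0.62, adjusted p = 0.12). Under drought the difference for the other LTP3 probe set was -0.32, short of the threshold. XIP-I, an inhibitor of fungal xylanase, stood at 0.65 ± 0.41, and WGA2, GLU1A and wci at -0.94 to -0.46; none passed.

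Of 7 translation genes, 3 rose and 0 fell, with a median of 0.69. eIF-2-beta, a subunit of the initiation factor that brings the first tRNA, had 11.65, 11.69 and 10.50 in the bulk, against 9.68, 9.91 and 9.79 in C306, and was higher by 1.49 ± 0.33 (adjusted p = 0.000881). NCBP and eIF4E, which bind the mRNA cap, rose by 1.24 ± 0.29 and 0.80 ± 0.19. None of these 3 passed without C306 replicates 1 and 3, in a fit with 1 C306 drought array left, where they stood at 1.37, 0.79 and 0.72 (adjusted p = 0.0527, 0.125 and 0.0709) and Eif4B, an RNA-binding initiation factor, passed as lower (-0.58). RPL9 and RPS29, ribosomal proteins, stood at 0.69 ± 0.30 and -1.21 ± 0.60, and TCTP and Eif4B at 0.25 and -0.15, without passing.

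Of 8 cytoskeleton and cell wall genes, 0 rose and 2 fell, both beta tubulins, with a median of 0.03. Tubulin tubb1 had 11.04, 11.03 and 10.72 in the bulk, against 12.44, 11.57 and 12.04 in C306, and was lower by -1.08 ± 0.19 (adjusted p = 6.29e-05). Tubb5 was lower by -1.52 ± 0.30 (adjusted p = 0.000271) at its brightest probe set, and 3 of its 4 probe sets passed as lower. Without C306 replicates 1 and 3 these 2 did not pass (-0.64 and -0.97, adjusted p = 0.0505 and 0.0973), and 2 other beta tubulins, tubb2 and tubb3, passed as lower (-0.97 and -0.88). The other 6 members ranged from -0.44 to 0.48 and did not pass. The highest, Tubb4 (0.48, adjusted p = 0.0523), passed as higher under 8 of 15 other settings, at 0.44 to 0.74, so the count of 0 rises depends on the setting. A dimmer probe set of the profilin PRO1 rose by 2.01. Of 8 histone and chromatin genes, TBP1, the TATA-binding protein, rose by 0.53 ± 0.18 and the histone H2A-3 fell by 0.88. The call of TBP1 ended under 6 of 15 settings, 4 of them the loss of a single array (bulk replicate 1 or 2, C306 replicate 1 or 3; 0.37 to 0.53, adjusted p = 0.0576 to 0.163), and without C306 replicates 1 and 3 (0.45). That of H2A-3 ended under 4, among them centring on all probe sets (-0.68) and the loss of bulk replicate 2 (-0.50). The histone wcH2B-6 had 9.60, 10.27 and 10.08 in the bulk, against 9.06, 9.24 and 7.80 in C306, a difference of 1.28 ± 0.60 that did not pass (adjusted p = 0.0983), while its other probe set did (1.81).

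The remaining genes gave few calls. Of 6 grain storage proteins, serpins and inhibitors, the avenin-like protein ALP rose by 0.63 ± 0.16 and the gliadin Gli-8 fell by 1.64 (adjusted p = 0.028), with overlap for Gli-8; 9 more of that group were too dim to be tested. The call of Gli-8 ended under 7 of 15 settings, among them the loss of bulk replicate 1 or 2 or of C306 replicate 1 or 3 (-1.66 to -1.24, adjusted p = 0.0596 to 0.145). Without C306 replicates 1 and 3 neither Gli-8 (-1.20) nor ALP (0.43) passed. The proton pump ha1 of the plasma membrane rose by 0.65 ± 0.17 at its brightest probe set. Of its 3 probe sets 2 passed as higher and the other as lower, by 0.94. The brightest did not pass without C306 replicates 1 and 3 (0.48). TPC1, a cation channel of the vacuole, stood at 0.01 ± 0.17. Among 10 genes of other roles, cys1 rose by 0.92 ± 0.17 and la-17 fell by 0.71. DMAS1, which makes the iron-binding deoxymugineic acid, fell by 0.96 at its brightest probe set, and all 3 of its probe sets passed as lower. The call of la-17 ended under 6 of 15 settings (-0.71 to -0.51, adjusted p = 0.0517 to 0.171): centring on all probe sets, no filter, the 2 groups alone, without bulk replicate 1, without C306 replicate 3, and without C306 replicates 1 and 3. The chaperone FKBP70 stood at -0.10 ± 0.30, and the 3 GA20ox genes of gibberellin synthesis were too dim to be tested.

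Several members that did not pass did so once 1 array was left out. Without bulk replicate 3, TCTP, Trx-M, XIP-I, RPL9, Tubb4, PRO1, TEF1 and TUBA passed as higher (0.46 to 1.11) and GSTZ1, 1-FEH and H2A-9 as lower (-1.44 to -0.52); that array was the lowest of the bulk for the 8 higher genes and the highest for the 3 lower ones. Without C306 replicate 2, FBP, TSA, RPL9 and Tubb4 passed as higher (0.66 to 1.02) and 1-FEH and RPS29 as lower (-0.61 and -2.14). The counts by role above therefore hold for the full set of arrays.

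**Figure D5:**
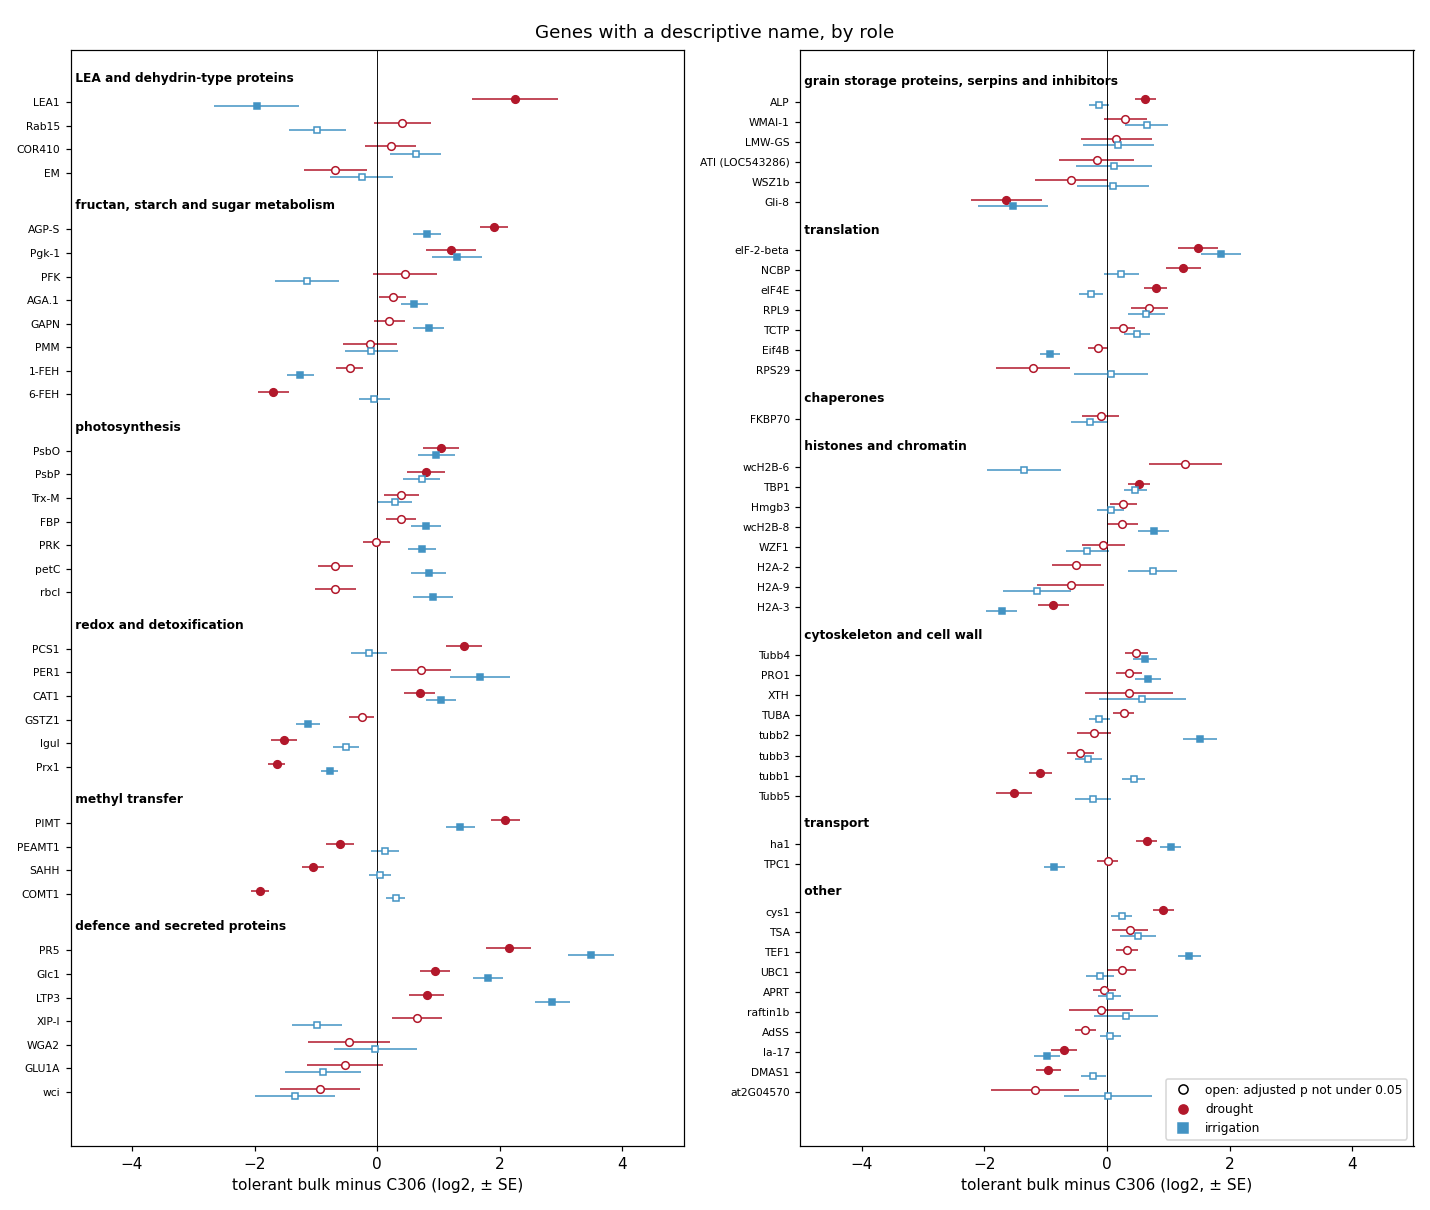
Difference of the tolerant bulk minus C306 (log2, with its SE) under drought (red circles) and under irrigation (blue squares) for the 78 tested genes with a descriptive name, grouped by role; filled symbols passed an adjusted p of 0.05. All 4 methyl transfer genes are filled under drought, where 45.7% of all named genes passed, with COMT1 at -1.91, while 4 of the 7 photosynthesis genes are filled under irrigation only. The call of PEAMT1, among these 4 methyl transfer genes, was lost under 5 of 15 other settings.

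Whether the bulk-minus-C306 difference itself differed between the water regimes was tested as an interaction. It passed for 4089 probe sets (11.2%), 2577 with a more positive difference under drought (7.03%) and 1512 with a more negative one (4.12%). With centring on all probe sets, dim ones included, the total was 5912 and the split 5217 and 695. Without C306 drought replicates 1 and 3 the count was 1480. Among named genes the most positive were LOC606323 (5.95 ± 0.78), LEA1 (4.22 ± 0.98), LOC543197 (3.69 ± 0.74), LOC542799 (3.43 ± 0.86) and wcH2B-6 (2.63 ± 0.85).

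LEA1 shows what lay behind such a value: it was 5.59 higher under drought than under irrigation in the bulk (adjusted p = 4.91e-06), and 1.37 higher in C306 (adjusted p = 0.17), where it already stood higher under irrigation. Over all tested probe sets, 18.7% passed between drought and irrigation in the bulk and 21.1% in C306. The most negative named genes were LOC542774 (-6.95 ± 0.50), LOC542773 (-6.93 ± 0.43), LOC780687 (-4.93 ± 0.30), LOC100037528 (-3.93 ± 0.63) and LOC543330 (-3.46 ± 0.43). For the first 3, drought went with a lower value in the bulk and a higher one in C306: LOC542774 had 5.76 ± 0.80 in the bulk under drought, against 9.06 ± 0.28 under irrigation (SD), a change of -3.31 (adjusted p = 5.42e-07). In C306 it had 12.27 ± 0.74 under drought, against 8.63 ± 0.55 under irrigation, a change of 3.64 (adjusted p = 5.63e-08). LOC100037528 differed under irrigation, at 9.63 ± 0.05 in the bulk and 4.62 ± 0.17 in C306, and was close to the dimmest signals of the array in both under drought, at 5.77 ± 1.02 and 4.68 ± 0.14, where the difference of 1.08 did not pass. The call of wcH2B-6 rested on most single arrays and was lost under 14 of 20 settings, and the other 9 calls held under all of them.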

How the data were processed

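Flag leaf RNA was measured on 24 Affymetrix wheat arrays. The deposited values were linear intensity values from GCOS 1.2, per the submitters' processing notes, and 8 ug of total RNA had been used per the labels' protocols. The sources used here give neither detection calls nor batches. Precision is limited by having 3 arrays per group. Values were turned into log2(signal + 16). The table held 61290 probe sets. Controls (111 AFFX and 64 RPTR) and the dimmest 40% were left out, and the median over the 36669 remaining probe sets was subtracted on each array. The medians had run from 7.84 to 8.22. One mean per group was fitted to all arrays with limma 3.58.1 in R 4.3.3 (empirical Bayes with an intensity trend, 16 residual degrees of freedom, two-sided tests, Benjamini-Hochberg adjustment over all tested probe sets at 0.05). A value after ± is the SE of a fitted difference, or the SD of 3 arrays where so marked. No 2 arrays held identical values.

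Genes were named from the old platform annotation (1273 probe sets, 771 genes; 770 found in assembly IWGSC CS RefSeq v2.1), and counts use a gene's brightest probe set. The text names the 10 largest rises and falls among named genes called without overlap, and the 5 largest interactions each way. It also names 2 unnamed probe sets each way, and the tested genes with a descriptive name apart from some that did not pass. Members and lists were chosen with earlier results of these data known. Alternatives were other centring, quantile normalization, pseudocounts of 1 and 64, no filter, a replicate block, the 2 groups alone, and arrays left out.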

Additional observations from a re-analysis of the deposited data

Results flagged for a closer look

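The bulk-minus-C306 difference was tested for a difference between drought and irrigation, and 37 of 103 genes and probe sets examined passed (limma, adjusted p of 0.05), against 11.2% of all tested probe sets. The genes were picked in part for a large drought difference, so their share is not read against that background. It was more positive under drought, on the log2 scale, for Ta.11279.1.A1_at (8.04), Ta.28058.1.S1_at (6.92), LOC606323 (5.95), LEA1 (4.22), LOC543197 (3.69), LOC542799 (3.43), wcH2B-6 (2.63), LOC543338 (2.08), PCS1 (1.55), LOC606366 (1.48), AGP-S (1.10), eIF4E (1.05), GSTZ1 (0.88), TPC1 (0.87), Eif4B (0.78) and ALP (0.75). It was more negative under drought for Ta.2789.2.S1_at (-8.52), LOC542774 (-6.95), LOC542773 (-6.93), Ta.7545.1.A1_at (-5.92), LOC780687 (-4.93), LOC100037528 (-3.93), LOC543330 (-3.46), COMT1 (-2.21), LTP3 (-2.05), LOC778385 (-1.94), LOC100037637 (-1.82), tubb2 (-1.73), 6-FEH (-1.65), rbcl (-1.59), petC (-1.52), tubb1 (-1.52), Tubb5 (-1.29), SAHH (-1.08), lgul (-1.01), TEF1 (-1.01) and Prx1 (-0.87). The poly-A controls of the C306 drought arrays stood above those of all other arrays, and their part in these values was not tested.

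The drought difference of the tolerant bulk minus C306 was also tested against that of the susceptible bulk minus WL711, and 37 of the same 103 genes and probe sets passed, against 15.3% of all tested probe sets. As these were picked in part for a large drought difference in the tolerant pair, their share and their split of 15 positive and 22 negative are not read against that background. The tolerant pair's difference was above that of the susceptible pair for Ta.28058.1.S1_at (8.22), Ta.11279.1.A1_at (7.15), AGP-S (2.39), LOC543390 (2.23), LOC543430 (1.76), PIMT (1.74), PCS1 (1.59), cys1 (1.44), NCBP (1.31), PsbP (1.31), Tubb4 (1.16), CAT1 (1.10), ALP (0.98), AGA.1 (0.93) and TCTP (0.91). It was below that of the susceptible pair for Ta.7545.1.A1_at (-9.45), Ta.2789.2.S1_at (-8.57), LOC542774 (-8.03), LOC542773 (-6.51), LOC780687 (-4.80), LOC543197 (-3.43), LEA1 (-2.96), LOC100037637 (-2.68), LOC780602 (-2.65), XIP-I (-2.51), Rab15 (-2.50), COMT1 (-2.24), LOC780610 (-2.23), LOC543330 (-2.13), 6-FEH (-2.04), LOC778385 (-2.04), WZF1 (-2.03), LOC542869 (-1.64), tubb1 (-1.51), LOC543311 (-1.07), DMAS1 (-1.02) and Prx1 (-0.97). For LOC543197, LEA1, XIP-I and Rab15 both bulks stood above their parents, with differences of 6.42, 5.21, 3.16 and 2.91 in the susceptible pair; XIP-I and Rab15 did not pass in the tolerant pair.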

How the results depend on the processing

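The count of 13679 probe sets under drought stayed within 1.5 times its value under every setting except one: without C306 replicates 1 and 3 it was 6530, that of the interaction 1480 and that of the difference between the pairs 2071, in fits with 1 C306 drought array left (the last 2 were added after seeing the data). Leaving out single arrays gave 10972 to 14267 for the drought comparison, 9884 to 11019 under irrigation, 2913 to 5498 for the interaction, 4158 to 7032 for the susceptible pair and 4017 to 7571 for the difference between the pairs. Without a filter on dim probe sets the drought split was 7901 higher and 4562 lower, that under irrigation 3908 and 8317, that of the interaction 4444 and 742, and that of the susceptible pair 2549 and 1539. With the 2 groups alone 9294 passed. With the replicate block 13704 passed, 12361 under irrigation and 4005 for the interaction; same-numbered bulk and C306 drought arrays deviated with correlations of -0.01, 0.09 and 0.06, so the numbers were not taken to pair them. Stability was checked for 53 drought calls, those of the genes and unnamed probe sets described above. Part of them were picked for large size and lack of overlap, so their share does not stand for all named genes called. Of the 53, 33 held under every setting and 20 were lost under at least 1, and none changed direction. The cause of these changes was not tested. Without detection calls, values near the floor cannot be told from background.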

Other observations

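Sucrose synthase, which splits sucrose for use by the cell, is on the array as control probe sets that were left out of the tests. The one for its 3′ end had 12.35, 12.51 and 11.60 on the bulk arrays under drought, against 10.58, 10.82 and 10.66 on the C306 arrays (centred log2 values; difference 1.47, exact permutation test, two-sided p = 0.1, the smallest possible). The one for its middle had 8.96, 9.19 and 8.75, against 7.38, 6.96 and 7.44 (difference 1.71, exact p = 0.1), and the one for its 5′ end overlapped (0.71, exact p = 0.5). For the first 2 all bulk arrays lay above all C306 arrays. They are 2 of 25 wheat control probe sets examined, of which 4 reached this exact p of 0.1, and the p-values were not adjusted. The bulk arrays also lay above the C306 arrays under irrigation. They had 11.36 to 11.75 against 11.05 to 11.27 for the 3′ end, and 8.48 to 8.87 against 7.31 to 7.46 for the middle. In the susceptible pair under drought the bulk lay above WL711 for the middle, while the 3′ end overlapped.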
